A study of Drosophila melanogaster with 3 samples.

Results

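Mitochondrial ribosomal protein genes are the nuclear genes that encode the protein parts of the ribosome inside mitochondria. They were taken as every protein-coding gene of the Ensembl annotation whose symbol begins with mRpL or mRpS and a number. The rule found 73 genes of 13945 on the 6 arms, 47 of the large subunit (mRpL) and 26 of the small subunit (mRpS), and it used no measured value. The data are maps of genomic DNA recovered with an anti-GFP antibody from whole Drosophila melanogaster embryos of 4 to 14 hours. The 3 samples were biological replicates of 1 group, a stable transgenic line that carried gooseberry-neuro (gsb-n) with GFP at its C-terminal end. Gsb-n belongs to the Pax transcription factors, carries both a paired domain and a homeodomain, and is known from the embryonic nervous system. No sample without the tagged protein was analysed here, so no background level measured the same way can be set beside these values. Whole embryos do not show in which cells a site was occupied.

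The mitochondrial ribosome translates the few messages that the mitochondrial genome itself encodes, all of them for subunits of the respiratory chain and ATP synthase. Its small subunit reads the message and its large subunit joins the amino acids. It descends from a bacterial ribosome, has kept counterparts of many bacterial proteins and has gained others that bacteria lack. All of its Drosophila proteins in this list are made in the cytoplasm from nuclear genes and imported, so their promoters are ordinary nuclear promoters. Many broadly expressed Drosophila genes lie in divergent pairs, in which neighbours on opposite strands start close together and share a stretch of promoter DNA. Position alone cannot give a peak in that stretch to one of the genes rather than the other.

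The sequences below span 50 bp on either side of the summit, the highest point, of 9 peaks at these genes, shown because they include 6 of the 7 strongest and differ in base composition. They were read from the RefSeq copy of the dm6 genome on the strand from which each mitochondrial gene is transcribed. Capitals mark matches, on either strand, to the 11 short motifs described with the promoters further on, and a sequence with no capitals held none of them. The first 5 windows were chr3R:15229493-15229593 on the plus strand for mRpS10, chr2L:13835421-13835521 on the minus strand for mRpS23, chr3L:2373574-2373674 on the minus strand for mRpL23, chr3L:13018075-13018175 on the minus strand for mRpL20 and chr2L:4945431-4945531 on the minus strand for mRpL24. The others were chr2L:4850499-4850599 on the minus strand for mRpS2, chr2L:10386424-10386524 on the plus strand for mRpS7, chr3R:8673953-8674053 on the plus strand for mRpL19 and chr3R:14511544-14511644 on the plus strand for mRpL11.
mRpS10: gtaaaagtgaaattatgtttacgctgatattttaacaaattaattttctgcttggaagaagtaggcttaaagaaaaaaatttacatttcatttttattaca
mRpS23: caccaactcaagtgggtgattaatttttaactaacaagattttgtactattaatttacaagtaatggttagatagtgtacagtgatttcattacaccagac
mRpL23: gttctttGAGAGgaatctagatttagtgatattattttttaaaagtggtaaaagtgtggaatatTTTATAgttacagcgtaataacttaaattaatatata
mRpL20: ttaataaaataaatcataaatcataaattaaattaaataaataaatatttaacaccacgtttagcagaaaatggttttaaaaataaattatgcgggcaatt
mRpL24: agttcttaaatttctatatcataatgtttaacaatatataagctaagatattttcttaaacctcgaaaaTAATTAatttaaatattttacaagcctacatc
mRpS2: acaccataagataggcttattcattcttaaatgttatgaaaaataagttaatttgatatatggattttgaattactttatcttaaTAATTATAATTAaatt
mRpS7: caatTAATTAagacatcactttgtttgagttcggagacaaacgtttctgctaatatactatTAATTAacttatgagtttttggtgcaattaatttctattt
mRpL19: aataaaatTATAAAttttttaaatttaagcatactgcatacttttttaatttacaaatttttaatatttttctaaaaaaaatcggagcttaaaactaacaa
mRpL11: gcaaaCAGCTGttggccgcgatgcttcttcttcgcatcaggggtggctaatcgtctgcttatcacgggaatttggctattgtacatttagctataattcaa
Most of these windows were rich in A and T. The G and C content was 22.8% at mRpS10 and at mRpL23, 17.8% at mRpL20 and at mRpS2, 19.8% at mRpL24 and 14.9% at mRpL19. It was 30.7% at mRpS23 and 26.7% at mRpS7. The window of mRpL11 differed, with a G and C content of 45.5% and a match to CAGCTG. The homeodomain core TAATTA was in 3 of the 9 windows, those of mRpL24, mRpS2 and mRpS7. In windows of this length at all 26 peaks within 500 bp of a member's start, it was in 5 (19.2%). The share was 10.8% at the 2031 peaks within 500 bp of any protein-coding gene's start.

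The tagged protein was recovered at the starts of a minority of these genes, and the size of that minority depended on how a shared promoter was counted. The measure was the authors' list of 5746 peaks kept at a threshold on the irreproducible discovery rate (IDR), a score of how well replicates rank the same peaks. When each summit was given to the gene with the nearest protein-coding transcription start site (TSS), 15 of the 73 genes (20.5%, 95% Wilson interval 12.9 to 31.2) had an IDR peak, against 22.6% of all protein-coding genes. Of these, 14 (19.2%, 11.8 to 29.7) had the summit within 500 bp of their TSS, against 13.7% of all genes. When a gene was counted whenever any of its own start sites lay within 500 bp of a summit, even where a neighbour's start was nearer, 26 (35.6%, 25.6 to 47.1) had an IDR peak, against 17.7% of all genes. The share of members was thus near that of all genes by the nearest start and above it by the 500 bp rule. That rule was made a main count after the data were seen, and it can count both genes of a divergent pair. Without replicate 2 the nearest start gave 13 members (17.8%), against 17.0% of all genes, so the side on which the members stood was not stable. Members share promoters and peaks with other genes and are not replicates, so the intervals cover counting error only.

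Both subunits were represented. The nearest-start rule gave 8 of 47 large-subunit genes (17.0%) and 7 of 26 small-subunit genes (26.9%). The 500 bp rule gave 14 of 47 (29.8%, 18.7 to 44.0) and 12 of 26 (46.2%, 28.8 to 64.5). The intervals of the subunits overlapped widely, and the median IDR rank of the peaks, with 1 the strongest, was 2229.5 for the 14 large-subunit genes and 2561.5 for the 12 small-subunit genes.

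The replicates gave similar counts by the 500 bp rule and unlike counts by the nearest start. Each replicate's list holds 30000 peaks, so its 5746 strongest were used. By the 500 bp rule replicate 1 had 28 members (all genes 18.5%), replicate 2 had 22 (all genes 17.9%) and replicate 3 had 28 (all genes 21.7%). That is 26 ± 3.46 (SD, n = 3), or 35.6% of the members, against 19.4% ± 2.08 (SD, n = 3) of all genes. By the nearest start replicate 1 had 17 members (all genes 23.3%), replicate 2 had 8 (all genes 22.7%) and replicate 3 had 17 (all genes 24.5%), or 14 ± 5.20 (SD, n = 3). Replicate 2 was the low one by both rules.

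Most members lay in divergent pairs. A start of another gene on the opposite strand lay within 1000 bp upstream of the member's own for 58 of the 73 members (79.5%), with a median gap of 283 bp. Among all protein-coding genes this held for 4914 (35.2%), with a median gap of 300 bp. Of the 58 members in such pairs, 24 (41.4%) had an IDR summit within 500 bp, against 27.8% of all genes in such pairs. Of the other 15 members, 2 (13.3%) did, against 12.3% of all genes outside pairs. By the nearest start the members stood at 20.7% in pairs and 20.0% outside, against 20.9% and 23.6% of all genes.

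The 26 members with an IDR summit within 500 bp had 26 distinct summits, none shared by 2 members. The member's own start was the nearest for 14 of them. For the other 12 the divergent partner was nearer in every case, 3 to 196 bp from the summit, with the member's start 48 to 399 bp away. The excess of the member's distance over its partner's had a median of 80.5 bp, was 20 bp at the least and was under 50 bp for 5 members, in chromatin that was sheared to 200 to 800 bp per the labels. Of the 24 summits at members with a partner, 19 lay between both starts. The replicates that had a matched summit named different nearest genes for 10 members. The plot of summit positions shows this layout for each gene.

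**Figure D1:**
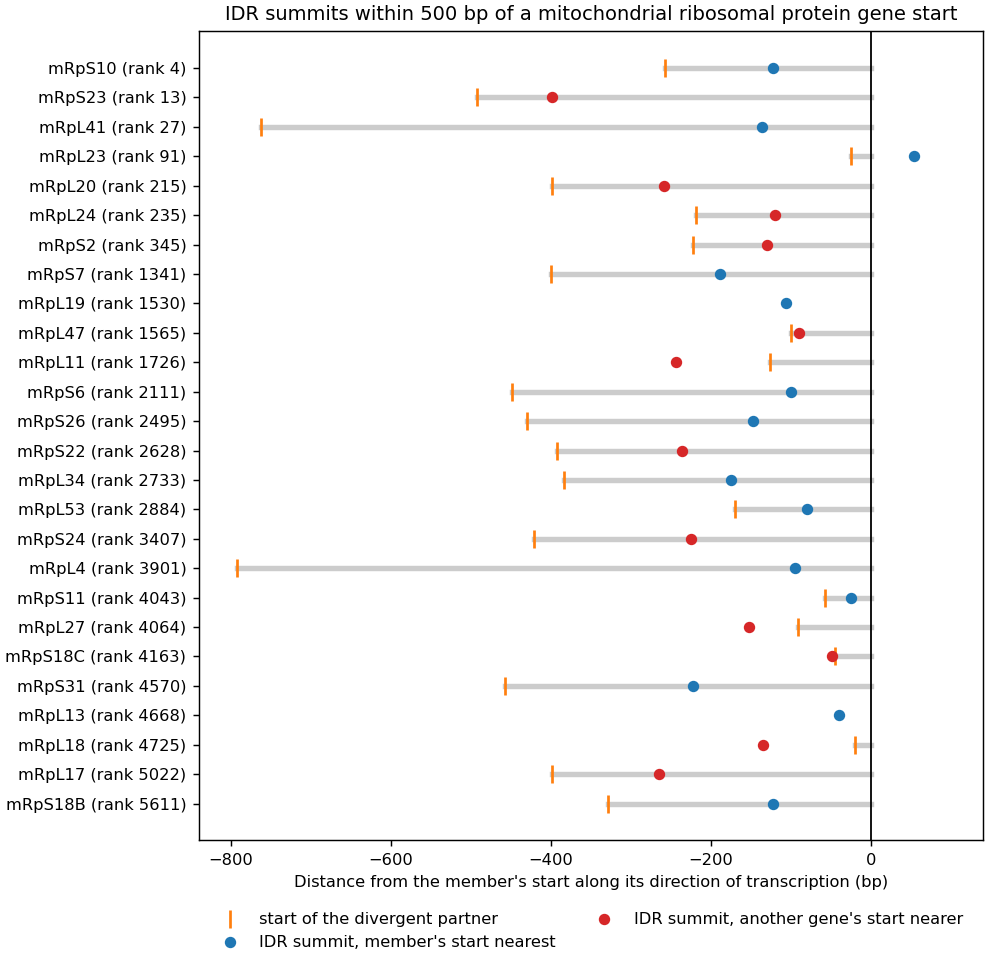
Position of the IDR summit at each of the 26 members with a summit within 500 bp of its start, as distance in bp from that start (0, black line) along the direction of transcription, ordered by IDR rank. Grey bars span from the member's start to the start of its divergent partner (orange tick), blue points are summits nearest to the member and red points summits nearer to another gene: 14 are blue, 12 are red, and all but that of mRpL23 lie upstream of the member's start.

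Where the member was nearest, the summit lay just upstream of the start in 13 of 14 cases (92.9%), at a median of -114 bp and between -222 and 54 bp. Over all 2100 assignments of an IDR summit to a start within 500 bp, 78.9% lay upstream, the median was -108 bp and the middle 50% spanned -200.25 to -18 bp. The members' summits therefore sat where promoter summits of other genes sat. A pair of members have a start identical to that of another annotated gene, mRpL13 with CG10602 and mRpL53 with CG33155, and their peaks cannot be told apart from those of these genes.

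The strongest peak was that of mRpS10, whose bacterial counterpart S10 lies in the head of the small subunit. It spanned chr3R:15229360-15229711 with a signal of 2816 on the authors' scale, which is used here only to rank peaks within a list. The peak was at rank 3 in replicate 1, 4 in replicate 2 and 5 in replicate 3, at rank 4 ± 1 (SD, n = 3), with signals of 1032, 1235 and 554.5 on the scales of the separate lists. The summit was 122 bp upstream of mRpS10 and 135 bp from the start of its partner Art3, an arginine methyltransferase gene. In replicate 1 the summit lay 136 bp from mRpS10 and was assigned to Art3, and in replicates 2 and 3 it lay 124 and 121 bp from mRpS10 and was assigned to mRpS10. All 3 replicates thus placed the peak among their 5 strongest, while the gene it was given to turned on a shift of 15 bp at most.

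The peak at mRpS23, a small-subunit protein without a bacterial counterpart, was next, at rank 13 with a signal of 2256 (chr2L:13835301-13835639). Its ranks were 29, 10 and 10 in replicates 1, 2 and 3, or 16.3 ± 11.0 (SD, n = 3). The summit was 399 bp upstream of mRpS23 and 93 bp from CenG1A, a gene for an Arf GTPase-activating protein, and every replicate gave it to CenG1A. The peak at mRpL41, a large-subunit protein without a bacterial counterpart, had rank 27 and a signal of 1936 (chr2R:15217596-15217914). Its ranks were 27, 33 and 22, or 27.3 ± 5.51 (SD, n = 3), and its summit 136 bp upstream was nearest to mRpL41 in every replicate, with the start of the partner CG8079 762 bp away from that of mRpL41. This peak is the strongest that all lists gave to the same member.

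The peak at mRpL23, whose bacterial counterpart lines the exit of the peptide tunnel, had rank 91 and a signal of 1333 (chr3L:2373451-2373767). It was at rank 93 in replicate 1, 98 in replicate 2 and 93 in replicate 3, or 94.7 ± 2.89 (SD, n = 3). Its summit lay 54 bp downstream of the mRpL23 start in all 3 replicates, and the partner CG9004 starts only 24 bp upstream of mRpL23. It was the single member summit downstream of the start. These 4 peaks were among the 100 strongest of the IDR list.

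The next 3 peaks all lay between a member and a partner that was nearer. At mRpL20, whose bacterial counterpart acts early in the assembly of the large subunit, the peak chr3L:13018008-13018299 had rank 215 and a signal of 923.8, with ranks of 237, 234 and 217, or 229 ± 10.8 (SD, n = 3). Its summit was 258 bp from mRpL20 and 141 bp from Icmt, an isoprenylcysteine methyltransferase gene. At mRpL24, whose bacterial counterpart starts that assembly, the peak chr2L:4945330-4945608 had rank 235 and a signal of 890.1, with ranks of 226, 323 and 179, or 243 ± 73.4 (SD, n = 3). Its summit was 120 bp from mRpL24 and 98 bp from betaggt-I, a geranylgeranyl transferase subunit gene. At mRpS2, whose bacterial counterpart joins the small subunit late, the peak chr2L:4850411-4850666 had rank 345 and a signal of 780.5, with ranks of 446, 276 and 357, or 360 ± 85.0 (SD, n = 3). Its summit was 130 bp from mRpS2 and 92 bp from Mon1, a gene for part of a Rab exchange factor. Replicates 1 and 2 gave the peaks of mRpL24 and mRpS2 to the partners, and replicate 3 gave both to the mitochondrial genes.

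A gap in rank followed these 7 peaks. The peak at mRpS7, whose bacterial counterpart organises the head of the small subunit, spanned chr2L:10386266-10386681 at rank 1341 with a signal of 395.7. Its ranks were 1665, 1343 and 1410, or 1473 ± 170 (SD, n = 3), and its summit was 188 bp upstream of mRpS7, which was nearest in every replicate, and 212 bp from the start of Cdk1, the mitotic kinase gene. The peak at mRpL19, whose bacterial counterpart lies where the subunits meet, spanned chr3R:8673795-8674210 at rank 1530 with a signal of 367.3. Its ranks were 2069, 1485 and 1716, or 1757 ± 294 (SD, n = 3), with the summit 106 bp upstream and no divergent partner. It was the strongest peak at a member outside a divergent pair.

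The peak at mRpL47, related to bacterial L29, had rank 1565 and a signal of 362.2, with ranks of 1851, 1937 and 1150, or 1646 ± 432 (SD, n = 3). Its summit was 9 bp from the starts of Kdm3, a histone demethylase gene, and CG8176, and 90 bp from mRpL47. The peak at mRpL11, whose bacterial counterpart forms the base of a stalk that binds translation factors, had rank 1726 and a signal of 343.5, with ranks of 2080, 2541 and 1068, or 1896 ± 753 (SD, n = 3). Its summit lay 244 bp upstream of mRpL11 and 118 bp inside HtrA2, a mitochondrial protease gene that is transcribed the other way. Both were given to the partner in all 3 replicates.

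The 15 weaker peaks within 500 bp were more variable in rank. In IDR order, mRpS6 was at rank 2111 with its summit 99 bp upstream, mRpS26 at 2495 (147 bp), mRpS22 at 2628 (236 bp), mRpL34 at 2733 (174 bp), mRpL53 at 2884 (79 bp) and mRpS24 at 3407 (225 bp). They were followed by mRpL4 at 3901 (95 bp), mRpS11 at 4043 (25 bp), mRpL27 at 4064 (152 bp), mRpS18C at 4163 (48 bp) and mRpS31 at 4570 (222 bp). The last were mRpL13 at 4668 (39 bp), mRpL18 at 4725 (135 bp), mRpL17 at 5022 (265 bp) and mRpS18B at 5611 (122 bp). Each of these summits lay upstream of the member's start. The nearest gene was CG5003 for mRpS22, Apc2 for mRpS24, CG15435 for mRpL27, CG15535 for mRpS18C, Taz for mRpL18 and Tudor-SN for mRpL17. Taz encodes tafazzin, which remodels the mitochondrial lipid cardiolipin, and Apc2 encodes a Wnt pathway and cytoskeletal protein.

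The ranks of these weaker peaks in replicates 1, 2 and 3 were 1931, 2449 and 3510 for mRpS6 and 1688, 5072 and 4496 for mRpS26. They were 1985, 5020 and 2960 for mRpS22 and 2235, 5373 and 2791 for mRpL34. They were 2876, 5056 and 2039 for mRpL53, 2339, 4631 and 5534 for mRpS24, and 4894, 5000 and 3881 for mRpS11. All 7 of these peaks stood within the 5746 strongest of every replicate, and the others did not. For mRpL4 the ranks were 5645, 7334 and 1984, and for mRpL27 they were 5958, 4491 and 3714. For mRpL13 they were 6435, 6399 and 2330, and for mRpL17 they were 4991, 6728 and 8158. Of the 14 weaker peaks matched in both, replicate 2 ranked 12 lower than replicate 1 did. It was lowest by far at mRpS31 (3257, 14508 and 4375) and mRpL18 (4859, 28856 and 6734). The value at mRpL18 depended on the 100 bp limit for matching, since replicate 2 had a stronger summit, at rank 10417, within 500 bp of the start. The peak of mRpS18B stood just below the 5746 strongest in all 3 lists, at 5857, 6326 and 5989. For mRpS18C no summit of replicate 1 lay within 100 bp, and replicates 2 and 3 ranked it 3357 and 3388.

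**Figure D2:**
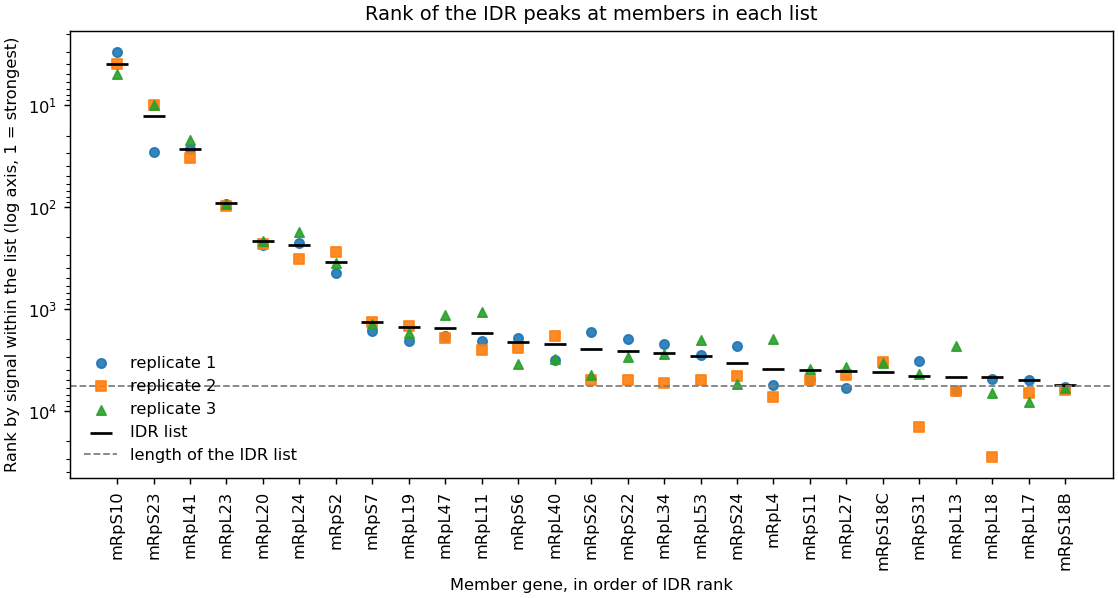
Rank by signal, on a log axis with 1 the strongest, of the IDR peak at each of 27 members in the IDR list (black bars) and of the matched peak within 100 bp in replicate 1 (circles), replicate 2 (squares) and replicate 3 (triangles). Replicates stay close for the first 7 genes, all at ranks of 446 or better, and spread further apart among the weaker peaks. The matched peak of replicate 2 is at 14508 for mRpS31 and at 28856 for mRpL18, where a stronger one at 10417 lay beyond the 100 bp limit. The dashed line is the length of the IDR list, 5746.

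Most of these summits were found again in all replicates, from whose lists the IDR list was itself made. Of the 26 summits, 25 (96.2%) had a summit within 100 bp in each of the 3 full replicate lists, against 87.3% of all 2031 IDR summits within 500 bp of a start. The median signal of the members' summits was 269.3, against 267.2 over all such summits, and the median position in the IDR list was 44.6% of its length, against 45.1%. The medians of members and of all promoter peaks were thus close. The top of the list was different: 4 of 26 (15.4%) were at rank 100 or better, against 57 of 2031 (2.81%), and 7 (26.9%) at rank 500 or better, against 249 (12.3%). At rank 1437 or better the shares were 30.8% and 30.2%. The number of members behind each of these shares is small. Among the strongest, the summits at mRpS23, mRpL20, mRpL24 and mRpS2 were nearer to the divergent partner than to the member.

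The gene mRpL40 was the exception to the promoter pattern. Its start was the nearest one to an IDR peak at chr3R:11392929-11393074, at rank 2247 with a signal of 291.6, whose summit lay 14904 bp upstream. That distal peak was at ranks 3224, 1872 and 3097 in the replicates, or 2731 ± 747 (SD, n = 3), and had a G and C content of 48.8% within 100 bp of the summit. The start of mRpL40 itself had a weaker peak in each replicate list, at ranks 8408, 7706 and 4936 and 119, 113 and 89 bp from the start, but no summit of the IDR or pooled list lay within 500 bp of it. The closest IDR summit, at rank 407, was 2040 bp from that start but nearer to another gene. By the nearest start mRpL40 is the 1 member given an IDR peak only at a distance.

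Weaker peaks added members. The authors' pooled list of 30000 peaks, of which the IDR peaks are the 5746 strongest, was nearest to 22 members (30.1%, 20.8 to 41.4) and to 45.9% of all genes. With starts within 500 bp also counted it held 39 members (53.4%) and 50.2% of all genes. The 12 members that entered with the pooled list were mRpL2, mRpL21, mRpL22, mRpL30, mRpL32, mRpL35, mRpL48, mRpL50, mRpL55, mRpS5, mRpS16 and mRpS21, 11 of them in divergent pairs. The highest within 500 bp were mRpL2 at pooled rank 6025, mRpL21 at 6152, mRpL48 at 6259, mRpS5 at 6583 and mRpS16 at 6921, close below the end of the IDR list. Then came mRpL32 at 8216, mRpL50 at 9692, mRpL35 at 10480 and mRpS21 at 11390. Bacterial L2 lies at the peptide-joining centre, and the partners of mRpL2 and mRpL21 are the forkhead gene FoxK and the chromatin helicase gene rept.

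A further 19 members (26.0%) had a peak only in replicate lists, by the nearest start or within 500 bp, against 19.4% of all genes. Of the members, 58 (79.5%) had a peak by that rule in at least 1 of the 5 lists, against 69.6% of all genes. The 15 with none (20.5%, against 30.4% of all genes) were mRpL1, mRpL9, mRpL10, mRpL12, mRpL16, mRpL36, mRpL42, mRpL43, mRpL45, mRpL46, mRpS9, mRpS14, mRpS18A, mRpS25 and mRpS34. Of these 15 genes 8 lie in divergent pairs. Since the full lists were filled to a fixed length, a peak deep in one of them has a low signal, and the lack of one does not show that a site was empty.

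Counted per member over the replicates' 5746 strongest peaks by the 500 bp rule, 18 members (24.7%) had a peak in all 3 replicates, against 12.6% of all genes. A further 6 (8.22%, against 5.83%) had one in 2 replicates, 12 (16.4%, against 8.64%) in 1 and 37 (50.7%, against 72.9%) in none. All of the 18 also had an IDR summit within 500 bp. Of the 6, mRpL27, mRpL4, mRpS18C and mRpS31 had one and mRpL39 and mRpL44 did not. Of the 12, mRpL13, mRpL17 and mRpL18 had one. The other 9 were mRpL2, mRpL3, mRpL21, mRpL37, mRpL40, mRpL48, mRpS16, mRpS17 and mRpS29. Of the 37, 1 had an IDR summit, mRpS18B.

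The arms differed in how many members had an IDR summit within 500 bp. Arm 2L had 8 of 12, where 17.9% of all genes had one, and arm 3R had 8 of 21 (18.9%). Arm 3L had 6 of 17 (19.5%) and arm 2R had 4 of 12 (16.3%). None of the 11 members on the X chromosome had one, where 15.6% of all genes did, and the 95% Wilson interval for 0 of 11 reached 25.9%. The share of all X genes lay inside that interval, while the 35.6% of all 73 members lay above it. The interval covers counting error only, and a difference between members on the X and on the other arms was not tested.

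Lists of other genes that serve mitochondria had lower shares by the 500 bp rule than the 35.6% of the ribosomal protein genes, within wide intervals. Of 40 genes for respiratory complex I, 7 (17.5%, 8.75 to 32.0) had an IDR summit within 500 bp, the strongest being ND-MWFE at rank 734. Complex IV had 4 of 16 (25%, 10.2 to 49.5), led by COX5A at 1927, ATP synthase had 2 of 15 (13.3%, 3.74 to 37.9), complex II had 1 of 4 and complex III had none of 9. Genes of mitochondrial protein import had 1 of 15 (6.67%, 1.19 to 29.8). In the rest of the mitochondrial gene expression machinery, tRNA synthetases had 4 of 15 (26.7%, 10.9 to 52.0), factors of DNA maintenance and transcription 3 of 13 (23.1%, 8.18 to 50.3) and translation factors 1 of 8. These intervals overlapped that of the mitochondrial ribosomal protein genes (25.6 to 47.1). The order changed with the nearest start, by which the ribosomal protein genes stood at 20.5%. Complex IV was then at 31.25%, DNA maintenance and transcription at 23.1% and complex I at 22.5%, and the other lists were at 13.3% or less. Divergent pairs held 79.5% of the ribosomal protein genes and 22.2 to 66.7% of these other lists.

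The cytoplasmic ribosomal protein genes were more often marked than the mitochondrial ones. By the 500 bp rule 60 of 92 (65.2%, 55.1 to 74.2) had an IDR summit, and the replicates gave 61, 62 and 70, or 64.3 ± 4.93 (SD, n = 3), against 28, 22 and 28 of the 73 mitochondrial ones. By the nearest start they stood at 63.0% (52.8 to 72.2) against 20.5% (12.9 to 31.2). Counts by the nearest start and by the 500 bp rule thus nearly matched for cytoplasmic members, 58 and 60, and differed for mitochondrial members, 15 and 26. Divergent pairs held 59.8% of the cytoplasmic list. Their strongest peak, at RpL7, had rank 233, so the 5 strongest peaks within 500 bp of mitochondrial members ranked above every cytoplasmic one. Of these 5, the peaks at mRpS23 and mRpL20 were nearer to the divergent partner in every list, and that at mRpS10 was so in replicate 1. The median rank of the cytoplasmic peaks, 1727, was the better one (2561.5 for the mitochondrial). Proteasome subunit genes, another broadly expressed list, had 7 of 48 (14.6%, 7.25 to 27.2).

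**Figure D3:**
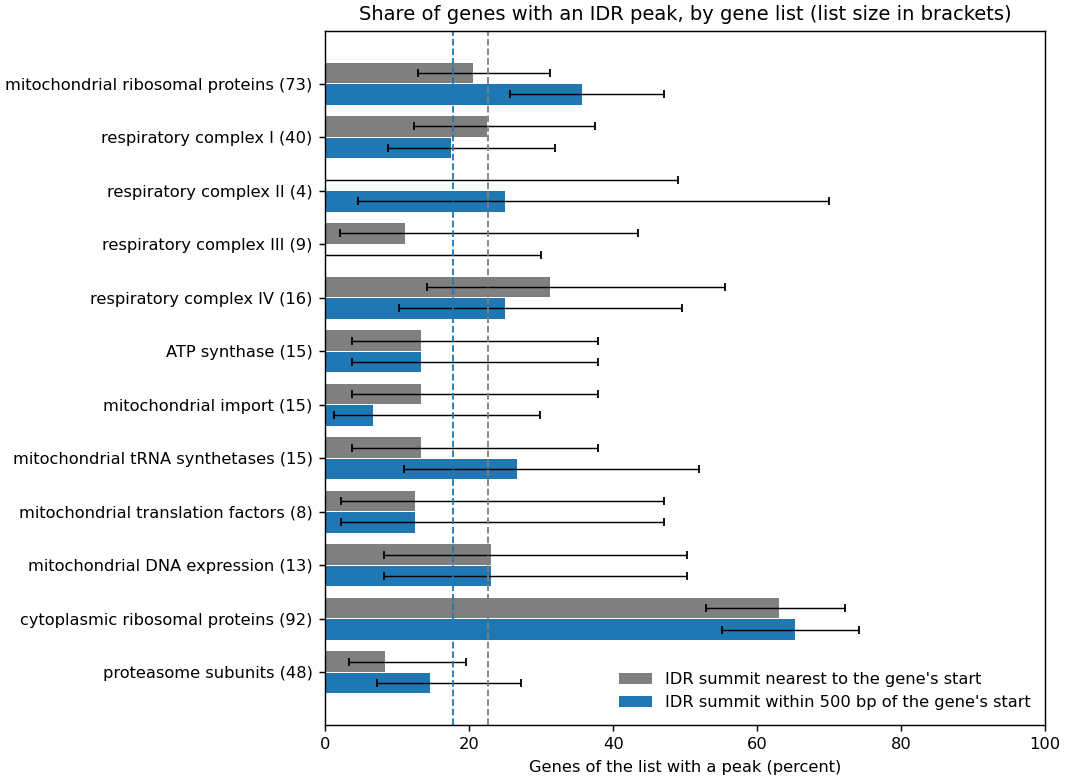
Percent of the genes of each list, list size in brackets, with an IDR summit nearest to the gene's start (grey bars) or within 500 bp of its start (blue bars), with 95% Wilson intervals as black lines and the shares of all protein-coding genes as dashed lines (22.6% grey, 17.7% blue). The blue bar of the 73 mitochondrial ribosomal protein genes stands at 35.6% and that of the 92 cytoplasmic ones at 65.2%, and the lists of other mitochondrial genes have wide intervals.

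Promoter sequences of the members differed from those of other genes in 1 element above all. Motifs were sought on both strands from 250 bp before to 50 bp after each gene's start. The hexamer CAGCTG, an E-box (CANNTG) found in core promoters, was in 40 of the 73 promoters (54.8%), against 17.7% of all 13945. It was in 15 of the 26 members with an IDR summit within 500 bp (57.7%) and in 25 of the 47 others (53.2%), so the shares of members with and without a peak were close. Within divergent pairs 31 of the 58 members in pairs (53.4%) held it, against 21.9% of all genes in pairs. Of the cytoplasmic ribosomal protein promoters, 9.78% held it.

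The E-box matches lay mostly close to the start, and most summits lay upstream of them. The match nearest to the start began at a median of 4 bp from it and between -227 and 38 bp over the 40 genes. Of the 15 of these genes with an IDR summit within 500 bp, 12 had the summit upstream of the closest match along the direction of transcription, and mRpL23, mRpL24 and mRpS2 had it downstream. The distance between them had a median of 114.5 bp (5.5 to 280.5 bp). Within 100 bp on either side of the members' summits CAGCTG was in 5 of 26 (19.2%), those of mRpL11, mRpL53, mRpS18C, mRpL13 and mRpL18, against 10.3% of 2031 promoter summits. Within 200 bp on either side it was in 14 (53.8%), against 24.7%. The summit and promoter windows differ in length, so their shares cannot be compared directly. The octamer TATCGATA, the DNA replication-related element bound by DREF, was in 15 member promoters (20.5%), against 9.37% of all, with 6 among members with an IDR summit and 9 among the others. At the summits it was in 1 of 26 (3.85%), that of mRpL19, against 6.79%, but within 200 bp on either side it was in 4 (15.4%), against 11.2%. At least 1 of these elements was in 50 members (68.5%), against 25.1% of all genes, and 5 members had both.

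Elements linked to the tagged protein's own domains gave mixed counts. The homeodomain core TAATTA was in 7 of 26 member summit windows (26.9%), those of mRpL24, mRpS2, mRpS7, mRpS26, mRpL27, mRpS31 and mRpS18B, against 18.3% of promoter summits. In the promoters it was in 15 of 73 (20.5%), against 20.5% of all genes. The paired-domain core GTCACG was in 5 summit windows (19.2%), those of mRpL53, mRpL4, mRpL27, mRpL13 and mRpL17, against 5.27%, and in 6 promoters (8.22%), against 5.62%. Of these 6 promoters 5 belonged to members with an IDR summit. The other paired-domain core, GTTCC, was in 3 summit windows (11.5%), those of mRpS2, mRpS22 and mRpL18, against 20.1%, and in 18 promoters (24.7%), against 30.8%. None of the 7 strongest summits held GTCACG, and mRpS10, mRpS23, mRpL41, mRpL23 and mRpL20 held none of the 3 cores.

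The remaining elements were as follows. The Myc E-box CACGTG, which does not overlap CAGCTG in sequence, was in 3 summit windows (11.5%), those of mRpL23, mRpS11 and mRpL27, against 1.92%, and in 5 promoters (6.85%), against 4.24%. At mRpL27 its match overlapped the one to GTCACG in the stretch CACGTGAC, so the counts of these motifs are not independent there. The GAGA factor repeat GAGAG was in 4 summit windows (15.4%), against 22.3%, though within 50 bp it was in 3 (11.5%), against 10.6%. It was in 12 promoters (16.4%), against 29.8%. The TATA box TATAAA was in 11 summit windows (42.3%), against 36.7%, but within 50 bp in 5 (19.2%), against 22.9%, and within 200 bp in 13 (50%), against 53.0%. It was in 34 promoters (46.6%), against 45.9%. The M1BP element GGTCACACT, which shares the letters GTCAC with the paired-domain core, was in 1 summit window (3.85%), that of mRpL13, against 4.38%, and within 200 bp in 3 (11.5%), against 8.57%. It was in 8 promoters (11.0%), against 6.05%. The NRF-1 or Ewg core GCGCATGC was in no summit window and 1 promoter, against 1.05% of all promoters, and the Zelda element CAGGTAG was in no member window of either kind, against 1.64% of all promoters. A match is a run of letters and was not tested as a site, and a window without a match says nothing of the factor.

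**Figure D4:**
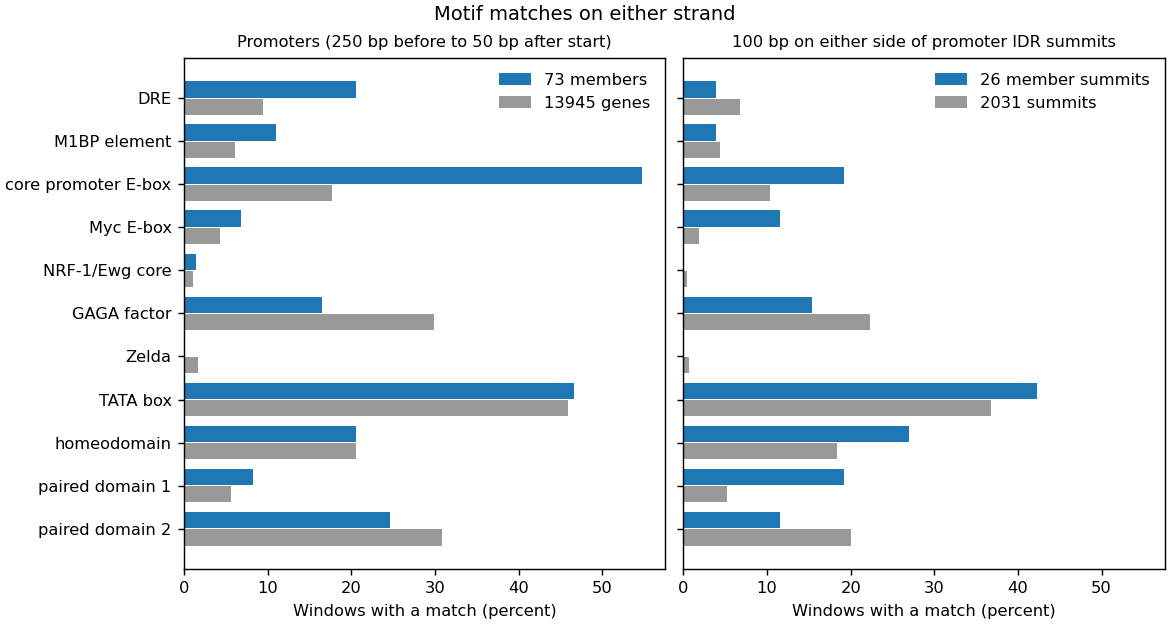
Percent of windows with a match to each motif on either strand, for promoters from 250 bp before to 50 bp after the start (left, 73 members in blue and 13945 genes in grey) and for 100 bp on either side of promoter IDR summits (right, 26 member summits in blue and 2031 summits in grey). The core promoter E-box CAGCTG stands at 54.8% of member promoters against 17.7% of all, and at 19.2% against 10.3% in the shorter summit windows.

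The summits at members were rich in A and T also in comparison with other promoter peaks. Within 100 bp on either side the median G and C content was 29.4% at the 26 member summits (24.4 to 55.7), against 34.8% at all 2031 promoter summits, whose middle 50% spanned 29.4 to 42.8. Of the 26, 18 lay below the promoter median. The lowest was mRpL19 at 24.4% and the highest mRpL53 at 55.7%, with mRpL18 at 49.8% and mRpS11 at 43.3% next. Strong promoter summits in general had a low G and C content: at rank 100 or better the median was 29.9% over 57 summits.

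Compared by rank, members had the lower median in 3 of 4 equal stretches of the list. At ranks 1 to 1437 it was 26.9% (8 summits) against 31.8% (614), and at ranks 1438 to 2873 it was 29.4% (7) against 34.8% (495). At ranks 2874 to 4310 both medians were 37.3% (6 and 466 summits). At ranks 4311 to 5746 the members had 29.4% (5) against 38.3% (456). The whole promoters of members, from 250 bp before to 50 bp after the start, had a median of 34.6%, against 37.9% over all genes. It was 33.7% for members with an IDR summit within 500 bp and 35.9% for the others. Base composition moves with the counts of motifs made of A and T, and its part in the peaks was not tested.

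**Figure D5:**
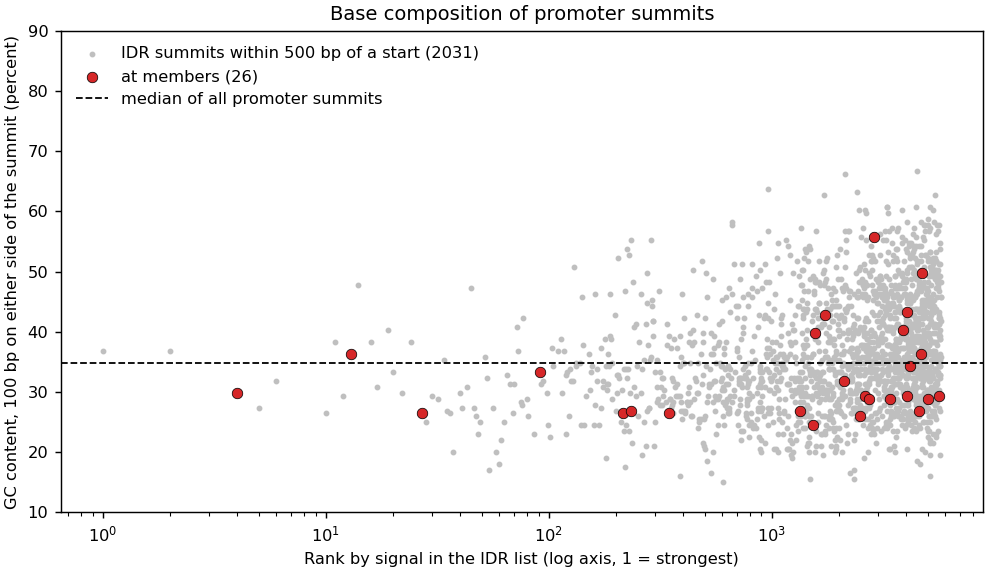
G and C content in percent within 100 bp on either side of each of 2031 IDR summits within 500 bp of a start (grey) and of the 26 of them at members (red), against rank by signal in the IDR list on a log axis with 1 the strongest. The dashed line is the median of all promoter summits, 34.8%, and 18 of the 26 red points lie below it.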

How the data were processed

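Peaks from gsb-n-GFP chromatin immunoprecipitation and sequencing of 3 biological replicates were used as 5 deposited lists on dm6. Per the deposited notes, each replicate's list came from its alignment with a shared control, the pooled list from all 3 alignments with that control, and the IDR list from the replicate and pooled lists. Each relaxed list holds 30000 peaks and the IDR list 5746. Aligner, peak caller and IDR threshold: not given in the sources used here. Each deposited signal value is the authors' peak height, on a scale of its own in each list, and served to rank peaks. The deposited −log10 q column was not used in any result, and the deposited summit offset gave each summit. The lists hold no read counts, so the depth of each sample is unknown and the precision it gives cannot be stated.

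Gene models were those of Ensembl release 115, and RefSeq's genome release 6 (dm6) gave the sequence. Each summit was assigned to the nearest protein-coding TSS, counting all tied genes (117 IDR summits had ties), and separately to every gene with a TSS within 500 bp. Summits of different lists were matched within 100 bp. A divergent partner had a TSS on the opposite strand at most 1000 bp upstream. Named genes were every member with an IDR peak, the 10 highest of them in full, up to 10 members with only a pooled peak and all members with none. Gene lists were made by symbol. With 1 group and no control sample, no test was made: counts are given beside all genes, with Wilson intervals (95%) that cover counting error only, and means ± SD over replicates. Python 3.11.15, pandas 2.3.3, NumPy 2.4.6 and SciPy 1.17.1 were used, and the assignment was checked on simulated summits. The members, lists and motifs were chosen with earlier results of these data known, and the 500 bp rule as a main count after seeing the data. Alternatives were other windows, thresholds, tie rules and lists, a single upstream TSS per gene, all annotated genes, and each replicate left out. Signal tracks were not analysed here, and 1 withheld item is not reported here.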

Additional observations from a re-analysis of the deposited data

How the results depend on the processing

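No paired analysis was possible because the samples form 1 group. Taking only the stronger 50% of IDR peaks left 9 members by the nearest start (main 15; all genes 14.4%, members 12.3%), 8 within 500 bp of it (main 14; all genes 7.82%, members 11.0%) and 15 by the 500 bp rule (main 26; all genes 10.5%, members 20.5%), so members and all genes fell together. The 26 of the 500 bp rule is itself an alternative to the nearest start. In the replicates, the mean of 14 members by the nearest start became 9 with the 3000 strongest peaks (all genes 15.1%, members 12.3%) and 28 with whole lists (all genes 51.1%, members 38.4%). Leaving out 1 replicate at a time, with IDR peaks kept where both others had them among their 5746 strongest, gave 11 to 13 members by the nearest start (15.1 to 17.8%; all genes 17.0 to 17.7%), 10 to 12 within 500 bp of it (13.7 to 16.4%; all genes 9.38 to 9.97%) and 18 to 20 by the 500 bp rule (24.7 to 27.4%; all genes 12.4 to 13.1%). For the replicates' own strongest peaks it gave a mean of 12.5 to 17 members (17.1 to 23.3%, all genes 23.0 to 23.9%). The median rank of the nearest-start members' peaks, as a share of the IDR list's length, was 38.9% in replicate 1, 87.0% in replicate 2 and 40.5% in replicate 3. The mean was 55.5 ± 27.3 (SD, n = 3), and 39.7 to 63.8% over the replicates left when 1 was omitted. The main value of 43.4% is the median in the IDR list and is not the same measure.

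The nearest-start share of members, below that of all genes at 20.5% against 22.6%, was above it in 3 alternatives: without replicate 2 (17.8% against 17.0%), within 1000 bp (14 members, 19.2% against 15.6%) and by the 500 bp rule (35.6% against 17.7%). In the other 30 alternatives on peak counts the members stayed on the same side of all genes as in the main value. The nearest start limited to 500 bp, counted as a main value of its own, put members above all genes (19.2% against 13.7%). It did so in each of its alternatives too.

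At the summits, searching 50 and 200 bp on either side in place of 100 gave 0 and 4 matches to TATCGATA (main 1; all promoter summits 3.35% and 11.2%), 0 and 3 to GGTCACACT (main 1; 2.12% and 8.57%) and 2 and 14 to CAGCTG (main 5; 4.58% and 24.7%, members 7.69% and 53.8%). The shorter window gave 1 to CACGTG (main 3; 3.85% against 0.837%), 5 to TATAAA (main 11; 19.2% against 22.9%) and 2 to GTCACG (main 5; 7.69% against 2.51%). The longer window gave 7 to GAGAG (main 4; 26.9% against 45.2%), 1 to CAGGTAG (main 0; 3.85% against 2.07%) and 7 to GTTCC (main 3; 26.9% against 36.6%). The side on which members stood turned in 6 of these alternatives: TATCGATA, GGTCACACT and CAGGTAG in the longer window, GAGAG in the shorter and TATAAA in both.

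With summits matched within 50 bp only replicate 2 was left for mRpS22, at rank 5020 (main mean 3322). Within 250 bp the mean rank of mRpS18C became 4267 (main 3372.5, without replicate 1), as replicate 1 was then matched too. That of mRpL18 became 7337 (main 13483), with replicate 2 then at rank 10417. The small number of members, the unknown depth and the shared promoters limit every count.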

Other observations

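Some members had replicate peaks near their starts with no pooled peak there, a pattern chosen after its values were seen. At mRpL39, which shares its promoter with the proteasome gene Prosbeta2, summits lay 160, 144 and 207 bp from the start in replicates 1, 2 and 3, at ranks 3684, 4466 and 8062, while the closest pooled summit was 6492 bp away. At mRpL44, the partner of the chromatin remodelling gene Snr1, replicate 1 had a summit at 154 bp (rank 2932) and replicate 3 at 130 bp (rank 4039), with the closest pooled summit 3575 bp away. At mRpS17 replicates 1 and 3 had summits at ranks 3282 and 6241. At mRpL37 replicate 1 alone had a summit near the start, at 163 bp and rank 989. The closest summits of replicates 2 and 3 were 22943 and 8658 bp away, and the closest pooled summit 22945 bp. Across the genome 203 (3.53%), 151 (2.63%) and 395 (6.87%) of the 5746 strongest peaks of replicates 1, 2 and 3 had no pooled summit within 500 bp. Among those with a summit in all 3 replicates this held for 61 of 5507 (1.11%), 53 of 5543 (0.956%) and 62 of 5273 (1.18%). Why the pooled list lacks them was not tested.

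A pair of genes for mitochondrial ribosomal proteins under other names, tko and bonsai, fell outside the symbol rule. Neither had an IDR summit nearest to its start or within 500 bp of it.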
